A study of Rattus norvegicus with 6 samples.

Results

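The antioxidant and glutathione enzymes are 44 genes that were chosen by name to cover the removal of superoxide and peroxides, the glutathione and thioredoxin systems and the conjugation of reactive molecules. They were chosen with earlier results of these data known. They were followed in the pancreas of 3 rats on an ethanol diet and 3 rats on a control diet, each read on 1 single-colour Affymetrix array, in a study of long-term ethanol intake. The sources used here do not give strain, sex, age, the make-up of the diets or the length of feeding, and name no other treatment or allele. Of the 44 genes, 42 had a probe set annotated to that gene alone, out of 10411 such genes on the array. Gsta2 and Prdx1 had none and are not analysed here. Where a gene had several probe sets, the brightest stood for it. The levels of 32 of the 42 genes were high enough to be tested, and 10 lay below the intensity filter and are given as values only.

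Cells make superoxide as a by-product of respiration and of oxidases. Superoxide dismutases turn it into hydrogen peroxide, which glutathione peroxidases and peroxiredoxins reduce to water at the expense of glutathione or thioredoxin and which catalase splits into water and oxygen. Glutathione is a cysteine-containing tripeptide that is made in the cytosol, is regenerated by an NADPH-dependent reductase and is joined to electrophiles by the glutathione transferases. Many of these genes are induced by the transcription factor NRF2, encoded by Nfe2l2, which binds the antioxidant response element. Pancreatic acinar cells hold much glutathione, and ethanol oxidation is a known source of reactive oxygen species.

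Because that element is the best known sequence shared by these genes, its core was looked for in RefSeq promoter windows of the GRCr8 assembly, which reach from 250 bases before to 50 bases after the gene start. Windows were found for 37 of the 44 genes. The core, TGACNNNGC on either strand, lay in 14 of their 43 windows (32.6%), against 4038 of all 33469 windows (12.1%). Some genes have several windows and related genes have similar ones, so this is a description. The other members with a core, not shown, are Gpx2, Gsta2, Gstm5, Prdx1, Prdx4, Prdx5 and Sod2. Matches of the remaining ones are shown with the core in capitals and 10 bases on each side. Each is written 5′ to 3′ in the direction of its gene:
Gsta1, chr9:31216484-31216512, minus strand: aactcaggcaTGACTTTGCatttttcttc
Gsta3, chr9:31154962-31154990, plus strand: aactcaggcaTGACTTCGCattttttcct
Gstp1, chr1:210769748-210769776, minus strand: tccactgtgtTGACTCAGCatccggggcg
Hmox2, chr10:11337689-11337717, minus strand: gtcttggaagGCAGTGTCAgcttggccag
Gclm, chr2:213031953-213031981, plus strand: tgcggtttctGCTTAGTCAttgtcttcca
Txnrd1, chr7:22755964-22755992, minus strand: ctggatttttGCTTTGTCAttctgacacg
Ephx1, chr13:95263156-95263184, minus strand: caacagatcaGCTGAGTCAttggggctat
In Hmox2, Gclm, Txnrd1 and Ephx1 the core lies on the strand opposite to the gene, so that the capitals start with GC. The alpha-class transferases Gsta1 and Gsta3 share the bases that precede it. The window of Gpx1, the member of smallest p, holds no such core and is shown whole (chr8:117905212-117905511, plus strand), with its match to the GC box, GGGCGG on either strand, in capitals:
Gpx1: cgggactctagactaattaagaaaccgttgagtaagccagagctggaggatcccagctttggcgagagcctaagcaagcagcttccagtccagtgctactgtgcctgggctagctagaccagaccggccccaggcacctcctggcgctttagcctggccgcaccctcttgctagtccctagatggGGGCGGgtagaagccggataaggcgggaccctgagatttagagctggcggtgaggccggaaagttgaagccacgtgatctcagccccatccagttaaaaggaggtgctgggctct
A GC box lay in 30 of the 43 windows (69.8%), against 33.1% of all windows.

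On the ethanol diet log2 changes of both signs were seen among these enzymes. Gpx1, a cytosolic glutathione peroxidase, Txnrd2, the mitochondrial thioredoxin reductase, and microsomal transferase Mgst1 read higher on every ethanol array than on any control array. Sod1, Hmox2, Prdx6 and the transferases Gstm1 and Gsta1 read lower on every ethanol array. None of the 32 tested genes passed limma's test after Benjamini-Hochberg adjustment over all 9520 tested probe sets, where 0.410% passed at an adjusted p under 0.05. The smallest adjusted p among them was 0.0912, for Gpx1. At an unadjusted limma p under 0.05, 3 genes were higher and 5 lower. That is 25.0% of the 32, against 18.4% of all tested probe sets (8.08% higher and 10.3% lower). The 3 ethanol arrays did not overlap the 3 control arrays for 12 of the 32 genes, 5 higher and 7 lower (37.5%), against 25.4% of all tested probe sets (11.1% higher and 14.3% lower). Since the genes were chosen with earlier results of these data known, these shares are a description.

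The log2 changes of the 32 genes, as ethanol minus control on the log2(intensity + 50) scale, ran from -0.77 to 1.12 with a median of -0.10, and 14 were positive and 18 negative. Over all tested probe sets the median was 0.00. A missed threshold does not show that a gene kept its level, but the intervals bound what could have been missed. For 28 of the 32 genes the 95% interval of the change lay within a 2-fold change in either direction, and the exceptions were Txnrd2, Mgst1, Gsta1 and Prdx6. The same held for 8246 of all 9520 tested probe sets, a similar share, so it is not particular to these enzymes.

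**Figure D1:**
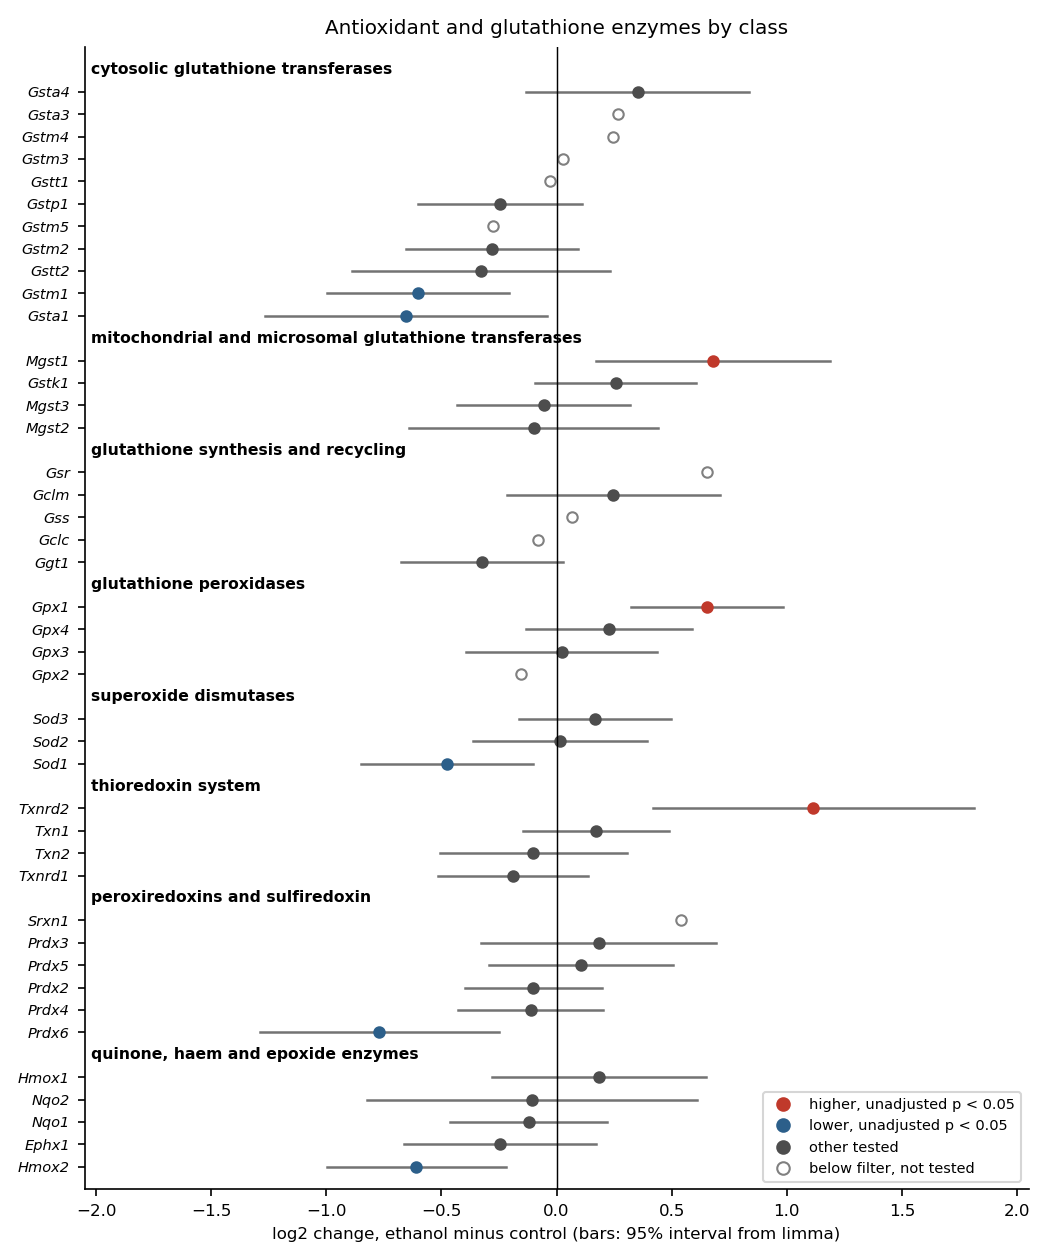
Log2 change (ethanol minus control, horizontal axis) of the 42 genes with a probe set of their own, by enzyme class, with 95% intervals from limma for the 32 tested genes. Filled red and blue points have an unadjusted p under 0.05, grey points do not, and open points lie below the filter; the red points Mgst1, Gpx1 and Txnrd2 lie right of 0 and the 5 blue ones left of it.

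Of the 3 superoxide dismutases, the copper-zinc enzyme of the cytosol was lower at an unadjusted p under 0.05 and the others were not under it. Sod1 had intensities of 3221, 3034 and 2495 in ethanol replicates 1 to 3, against 4272, 3547 and 4399 in control replicates 1 to 3. The groups did not overlap. The log2 change was -0.48 (SE 0.16, limma adjusted p = 0.181). The unadjusted p was not under 0.05 without control replicate 1, control replicate 3 or ethanol replicate 3. The mitochondrial manganese enzyme Sod2 averaged 1691 ± 30.6 in ethanol rats and 1692 ± 311 in control rats (SD, n = 3 each), a log2 change of 0.01 with a 95% interval of -0.36 to 0.39. The secreted Sod3 was at 0.17 (-0.16 to 0.50). Ccs, the chaperone that delivers copper to Sod1, was among the other pathway genes and was at 0.18.

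The glutathione peroxidases reduce peroxides with glutathione, and all 3 tested ones had a positive log2 change. Gpx1 had intensities of 14418, 16250 and 14410 in ethanol replicates 1 to 3, against 10114, 9952 and 8540 in control replicates 1 to 3. The lowest ethanol array lay well above the highest control array, and the spread within each diet was small. The change was 0.66 (SE 0.14, 95% interval 0.33 to 0.98), a 1.57-fold higher level, with a limma adjusted p of 0.0912. Under a variance model that follows intensity the adjusted p was 0.00883, where 2.62% of all probe sets passed, and with a filter at the 60th percentile it was 0.0482, where 2.11% passed. Gpx1 was the only member called under any of the 14 alternatives. Gpx4, which reduces lipid hydroperoxides in membranes, was at 0.23 (SE 0.16) and the plasma enzyme Gpx3 at 0.02 (SE 0.18). Gpx2, the gastrointestinal form, lay below the filter, with 109, 73 and 178 in ethanol replicates 1 to 3 and 102, 178 and 128 in control replicates 1 to 3.

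The peroxiredoxins, a family of thiol peroxidases, are kept reduced mostly by thioredoxin, and 1 of the 5 tested was lower at an unadjusted p under 0.05. Prdx6, a 1-Cys peroxiredoxin that is reduced through glutathione and also acts on phospholipids, had intensities of 703, 1034 and 556 in ethanol replicates 1 to 3, against 1118, 1492 and 1314 in control replicates 1 to 3. The groups did not overlap, although the highest ethanol array lay close to the lowest control array. The log2 change was -0.77 (SE 0.23, limma adjusted p = 0.149), a level 1.71-fold lower. Prdx2, the cytosolic form, read 2892, 3039 and 3115 in ethanol rats, against 3154, 3298 and 3259 in control rats. These groups did not overlap either, but the difference was small and its interval took in 0 (-0.10, 95% interval -0.40 to 0.20). Prdx3 of the mitochondria was at 0.18, Prdx4 of the endoplasmic reticulum at -0.11 and Prdx5 at 0.11, with standard errors from 0.14 to 0.22. Sulfiredoxin, Srxn1, which restores over-oxidised peroxiredoxins, lay below the filter and near background, with 17, 229 and 26 in ethanol rats and -76, 9 and 106 in control rats.

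In the thioredoxin system, Txnrd2 had the largest log2 change of the 32 tested members, while that of its cytosolic counterpart Txnrd1 was negative. Txnrd2, which keeps mitochondrial thioredoxin reduced, had intensities of 1147, 2409 and 2022 in ethanol replicates 1 to 3, against 776, 583 and 1097 in control replicates 1 to 3. Ethanol replicate 1 lay only just above control replicate 3, and the other two ethanol arrays lay far above all 3 controls. The change was 1.12 (SE 0.30, 95% interval 0.42 to 1.81), a 2.17-fold higher level, with a limma adjusted p of 0.133. Over the alternatives it ran from 0.90 to 1.42. Of the probe sets of Txnrd1, the brighter gave -0.19 (SE 0.14) and the dimmer -0.25 (SE 0.22). Cytosolic Txn1 read 12799, 15358 and 14212 in ethanol rats, against 12551, 12249 and 12755 in control rats. Its groups did not overlap, but the change was small (0.17, SE 0.14, limma adjusted p = 0.543). Mitochondrial Txn2, the substrate of Txnrd2, was at -0.10 (SE 0.18).

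**Figure D2:**
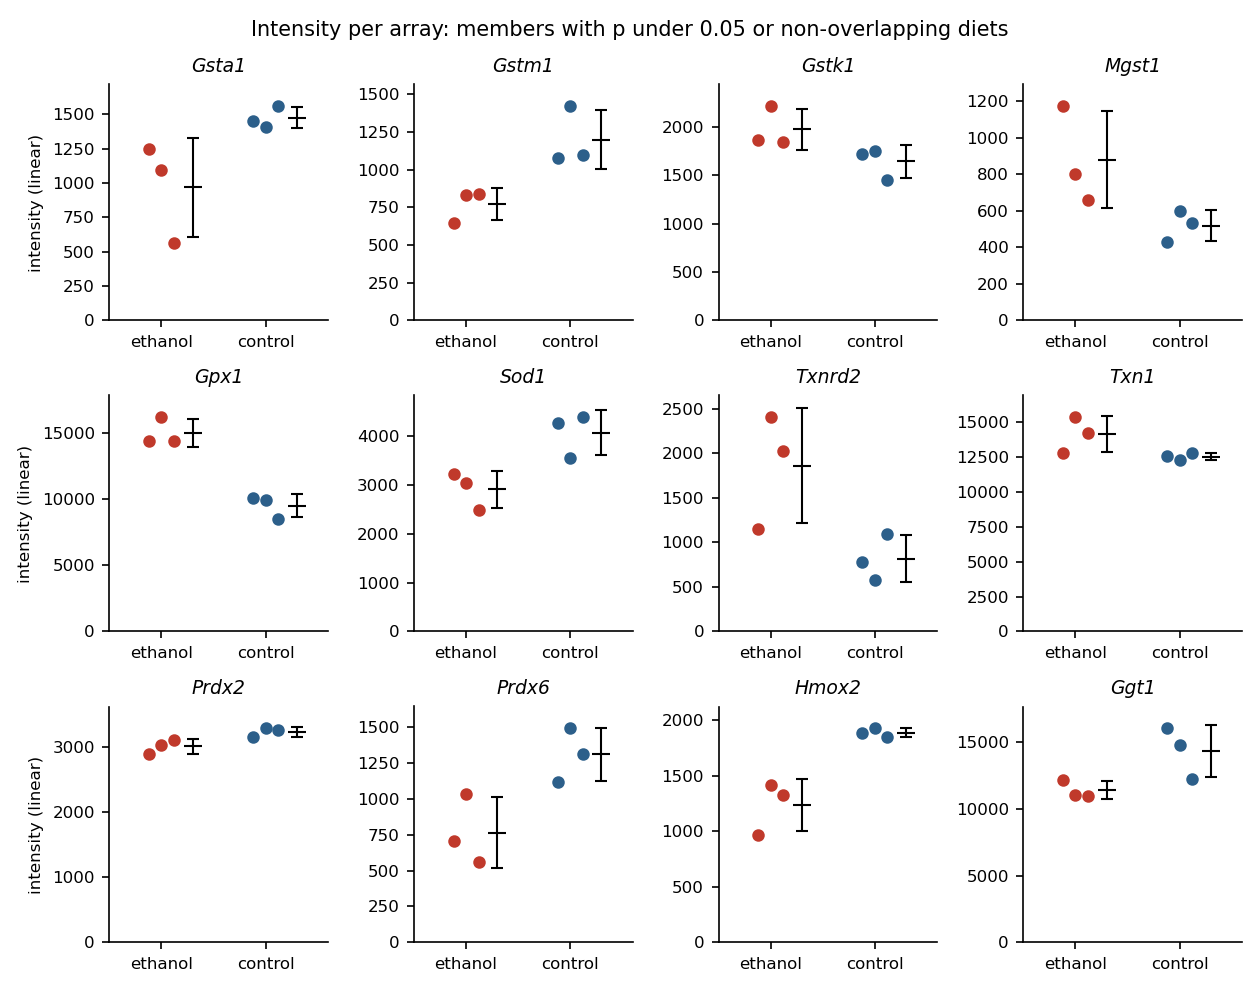
Deposited intensity (vertical axis, linear from 0) on each array for the 12 members whose diets did not overlap, the 8 with an unadjusted p under 0.05 among them; points are rats, and bars show mean ± SD of 3 rats. Gpx1 shows a wide gap between diets, while Txnrd2, Prdx6 and Gsta1 have ethanol arrays spread widely, and Txn1, Prdx2 and Gstk1 are separated by little.

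Of 5 genes of glutathione synthesis and recycling, 3 lay below the filter, and neither of the others reached an unadjusted p under 0.05. Gclm, the modifier subunit of the rate-limiting glutamate-cysteine ligase, had intensities of 488, 556 and 333 in ethanol replicates 1 to 3, against 324, 364 and 433 in control replicates 1 to 3. The groups overlapped (log2 change 0.25, SE 0.20). Gclc, the catalytic subunit, lay below the filter on both of its probe sets, with untested changes of -0.08 and -0.99, and an ethanol array of the dimmer one was below 0. Glutathione synthetase (Gss) averaged 154 ± 89.9 in ethanol rats and 143 ± 77.7 in control rats (SD, n = 3 each). Glutathione reductase (Gsr) read 318, 152 and 205 in ethanol rats and 295, 233 and -25 in control rats. Ggt1, the gamma-glutamyl transferase that breaks down extracellular glutathione, read 12209, 11050 and 10981 in ethanol rats, against 16088, 14775 and 12265 in control rats. Its groups did not overlap, by a narrow margin (log2 change -0.32, SE 0.15, limma adjusted p = 0.310).

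Of 6 tested cytosolic glutathione transferases, 5 had a negative log2 change and 2 of these had an unadjusted p under 0.05. Over all 9520 tested probe sets 4758 changes were negative, and 10.3% were lower at that threshold. Gstm1, of the mu class, had intensities of 648, 830 and 838 in ethanol replicates 1 to 3, against 1080, 1423 and 1095 in control replicates 1 to 3. The groups were clearly apart (log2 change -0.60, SE 0.17, limma adjusted p = 0.144). Gsta1, of the alpha class, read 1251, 1093 and 562 in ethanol rats, against 1454, 1411 and 1561 in control rats. Its change of -0.65 (SE 0.27, limma adjusted p = 0.242) was -0.32 without ethanol replicate 3, and its unadjusted p was not under 0.05 without that array, without any single control array or with no intensity filter. Gstt2 was at -0.33, Gstm2 at -0.28 and Gstp1, the pi-class enzyme, at -0.25, all with intervals that took in 0. Gsta4, which conjugates the lipid peroxidation product 4-hydroxynonenal, had a positive change, unlike the other tested ones (0.35, SE 0.21). It read 1110, 1914 and 1483 in ethanol rats and 1088, 1025 and 1320 in control rats.

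The mu-class genes lie together on chromosome 2 in the order Gstm3, Gstm2, Gstm1 and Gstm4 in the RefSeq annotation, with Gstm5 and 4 further mu-class genes before them, and their values are given in turn where not given above. Gstm5 was below the filter but lower on every ethanol array, at 225, 258 and 226 against 284, 275 and 332 in control rats. Gstm3 and Gstm4, also below it, had untested log2 changes of 0.03 and 0.24. Gsta3 averaged 199 ± 122 in ethanol rats and 141 ± 24.8 in control rats, and Gstt1 averaged 290.0 ± 139.6 and 284 ± 86.4 in the same order (SD, n = 3 each). The untested log2 changes of Gsta3, Gstt1 and Gstm5 were 0.27, -0.03 and -0.28. Closely related transcripts can bind each other's probes, which makes the values of single transferases less certain.

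Among 4 membrane and mitochondrial transferases, Mgst1, a microsomal transferase with peroxidase activity, was higher, at 1175, 801 and 662 in ethanol replicates 1 to 3, against 429, 597 and 533 in control replicates 1 to 3. The groups did not overlap (log2 change 0.68, SE 0.22, limma adjusted p = 0.170). Without control replicate 1 its unadjusted p was not under 0.05. Gstk1, the kappa-class enzyme of mitochondria and peroxisomes, read 1863, 2217 and 1841 in ethanol rats and 1725, 1756 and 1452 in control rats. Its groups were separate but close (0.26, SE 0.15, limma adjusted p = 0.405). Mgst2 was at -0.10 and Mgst3 at -0.06.

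Of 5 quinone, haem and epoxide enzymes, Hmox2, the constitutive haem oxygenase, was lower, with intensities of 970, 1412 and 1322 in ethanol replicates 1 to 3, against 1887, 1929 and 1844 in control replicates 1 to 3. All 3 controls were tightly grouped above the ethanol arrays (log2 change -0.61, SE 0.17, limma adjusted p = 0.136). Hmox1, the stress-inducible haem oxygenase, read 423, 481 and 467 in ethanol rats, against 279, 443 and 494 in control rats, and its groups overlapped (0.19, 95% interval -0.28 to 0.65). Nqo1, a quinone reductase widely used as a readout of NRF2, read 812, 654 and 793 in ethanol rats, against 754, 844 and 866 in control rats (-0.12, 95% interval -0.46 to 0.22). Its relative Nqo2 was at -0.11 (SE 0.31) and the microsomal epoxide hydrolase Ephx1 at -0.24 (SE 0.18).

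Set beside the promoter matches, shown above or not, the 9 tested members with an antioxidant response element core had 3 positive and 6 negative log2 changes, from -0.65 to 0.25. The 18 tested members whose windows hold no core had 9 of each sign, from -0.60 to 1.12. At an unadjusted p under 0.05, none of the 3 higher members (Gpx1, Txnrd2 and Mgst1) has the core in its window. Of the 5 lower ones, Gsta1 has it, Hmox2 has it in 1 of its 2 windows, Gstm1 and Sod1 do not have it, and no window was found for Prdx6. A match is no proof of a working site, and elements further from the start were not searched.

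Other genes of the same pathway were counted from 6 lists of 85 genes, of which 64 were tested. None passed over all probe sets in limma, and at an unadjusted p under 0.05, 7 were higher and 8 lower (23.4%, against 18.4% of all tested probe sets). These lists too were chosen with earlier results of these data known, so the share is a description. Of 12 tested genes of glutathione precursors and turnover, 4 were higher and 1 lower (41.7%, against 18.4% of all tested probe sets). Over all tested probe sets 8.08% were higher and 10.3% lower. Cth and Cbs, the enzymes that make cysteine from homocysteine, were both higher. Cth read 5543, 5337 and 5469 in ethanol rats, against 3537, 3671 and 3093 in control rats (log2 change 0.66, SE 0.14, limma adjusted p = 0.0865). Cbs read 5578, 5384 and 4744, against 3745, 3984 and 3872 in control rats (0.43, SE 0.14, limma adjusted p = 0.167). For both genes the ethanol arrays stood clear of the controls. Chac1, which cleaves glutathione inside cells, was at 0.69 (SE 0.25), or 0.43 without ethanol replicate 1, and Ggt7, of the gamma-glutamyl transferase family, at 0.84 (SE 0.23). Ahcy, which forms homocysteine from S-adenosylhomocysteine, was lower, at -0.51 (SE 0.20). The limma adjusted p of these 3 lay between 0.134 and 0.222. Chac1 and Ahcy each missed the unadjusted threshold in 4 of 14 alternatives, with no filter and without certain single arrays, among them control replicate 2 for both. Slc3a2, the heavy chain of the cystine transporter, was at 0.00. For Mat2a the brighter probe set gave -0.17 (SE 0.19) and the dimmer -0.55 (SE 0.15, limma unadjusted p = 0.00654). For Dpep1 the brighter gave 0.25 (SE 0.14) and the dimmer -0.30 (SE 0.16).

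Of 22 tested thiol and peroxide enzymes outside the members, 2 were higher and 2 lower. Sesn1, a sestrin, read 2126, 1931 and 2240 in ethanol rats, against 1045, 1343 and 770 in control rats (log2 change 0.99, SE 0.20, limma adjusted p = 0.0858). Every ethanol array lay above every control array. Selenok, a selenoprotein of the endoplasmic reticulum, was at 0.59 (SE 0.14). Msrb1, a methionine sulfoxide reductase, was at -0.40 (SE 0.16), and missed the unadjusted threshold in 4 of the 14 alternatives, each with 1 array left out. Txnl1, a thioredoxin-like protein, was at -0.61 (SE 0.15) on its brightest probe set and -0.44 (SE 0.16) on another. The remaining probe set of Txnl1 lay below the filter and near background. It read 98, 59 and 111 in ethanol rats and -17, -49 and 0 in control rats, which all count as 0. Its untested change was 1.46, so the mean of all 3 was 0.13. Catalase, Cat, read 3465, 3437 and 3733 in ethanol rats and 3715, 3416 and 2791 in control rats (0.11). Txnip, the thioredoxin-binding protein, was at 0.17 (SE 0.27).

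Of 7 tested genes of NRF2 and its partners, 2 were lower and none higher at that threshold. Over all tested probe sets 10.3% were lower and 8.08% higher, so no direction is read from a list this short. Nfe2l2 itself was at -0.11 (SE 0.19). For its repressor Keap1 the brighter probe set gave -0.09 (SE 0.15) and the dimmer one -0.69 (SE 0.30, limma unadjusted p = 0.0479). Only the brighter one enters the count. Sqstm1, which binds Keap1 and is an NRF2 target, read 3916, 4205 and 3500 in ethanol rats, against 6483, 6245 and 7486 in control rats. That was a clear separation (-0.79, SE 0.15, limma adjusted p = 0.0726). Another of its probe sets gave -0.79 as well, while 2 further ones gave 0.06 and, below the filter, 0.34. Cul3, the ubiquitin ligase scaffold that works with Keap1, was at -0.32 (SE 0.14), and missed the unadjusted threshold in 7 of the 14 alternatives, the replicate block among them. Averaging each gene's probe sets gave -0.29 for Sqstm1 and -0.21 for Cul3, neither under the unadjusted threshold. In NADPH supply, 1 of 10 genes was lower, malic enzyme Me1 (-0.56, SE 0.22), whose dimmer probe set below the filter read 0.97 and which missed the unadjusted threshold in 4 of the 10 alternatives that tested it. In haem and iron handling, 1 of 6 was lower, the iron-regulatory aconitase Aco1 (-0.61, SE 0.14). Among 7 other detoxification genes the carbonyl reductase Cbr1 was higher (0.70, SE 0.22) and the esterase Esd lower (-0.62, SE 0.18). The limma adjusted p of these 5, Cul3 included, ran from 0.0957 to 0.252.

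**Figure D3:**
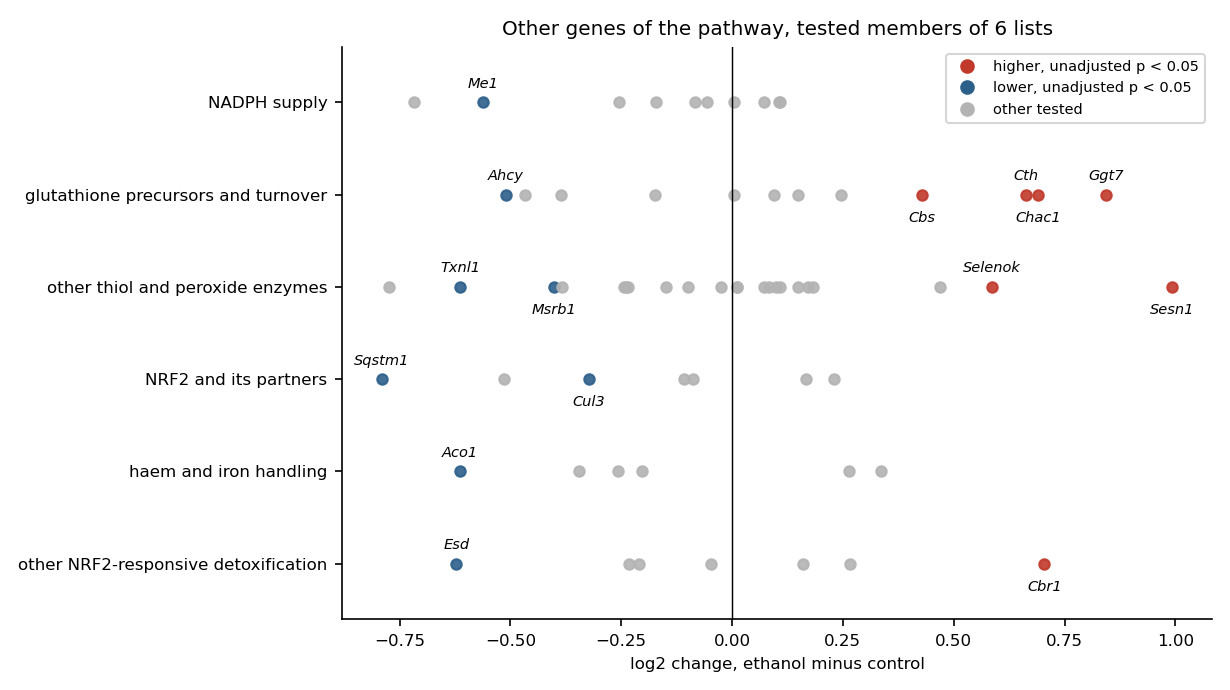
Log2 change (ethanol minus control, horizontal axis) of the 64 tested genes in 6 lists of other pathway genes. Named points have an unadjusted p under 0.05, red higher and blue lower. Of the 7 red points, 4 lie in the list of glutathione precursors and turnover, which has 12 tested genes. The list of NRF2 and its partners has 2 of 7 points blue, NADPH supply 1 of 10 and haem and iron handling 1 of 6, with no red ones. Over all tested probe sets 8.08% were higher and 10.3% lower, and no direction is read from lists this short.

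The tissue is a mixture of cell types, and fewer cells of a type cannot be told apart from less of a transcript per cell. The acinar enzymes Cpa1, Pnlip, Ctrb1 and Cel read near the top of the scale on all 6 arrays, so the labelled organ's defining markers were present. Red cell markers were higher beside Gpx1. Of 4 tested red cell markers, 3 were higher at an unadjusted p under 0.05, and their arrays did not overlap. The summed level of all 6 measured ones ran from 25817 to 33618 in ethanol rats and from 15720 to 23139 in control rats. The globin Hbb had a log2 change of 0.80 (SE 0.20), Hba-a3 of 0.64 (SE 0.20) and the haem synthesis enzyme Alas2 of 0.58 (SE 0.19), while the anion exchanger Slc4a1 was at 0.18 (SE 0.26). Rhag, another defining red cell gene, lay below the filter, with -66, -84 and -125 in ethanol rats and -73, 95 and 14 in control rats. Ahsp, the chaperone of alpha globin, was also below it, with 200, 306 and 393 in ethanol rats and 202, 192 and 242 in control rats (untested log2 change 0.38). Red cells are rich in Gpx1, Prdx2 and Cat protein, and Prdx2 and Cat were at -0.10 and 0.11. The part of red cells in the level of Gpx1 was not tested.

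**Figure D4:**
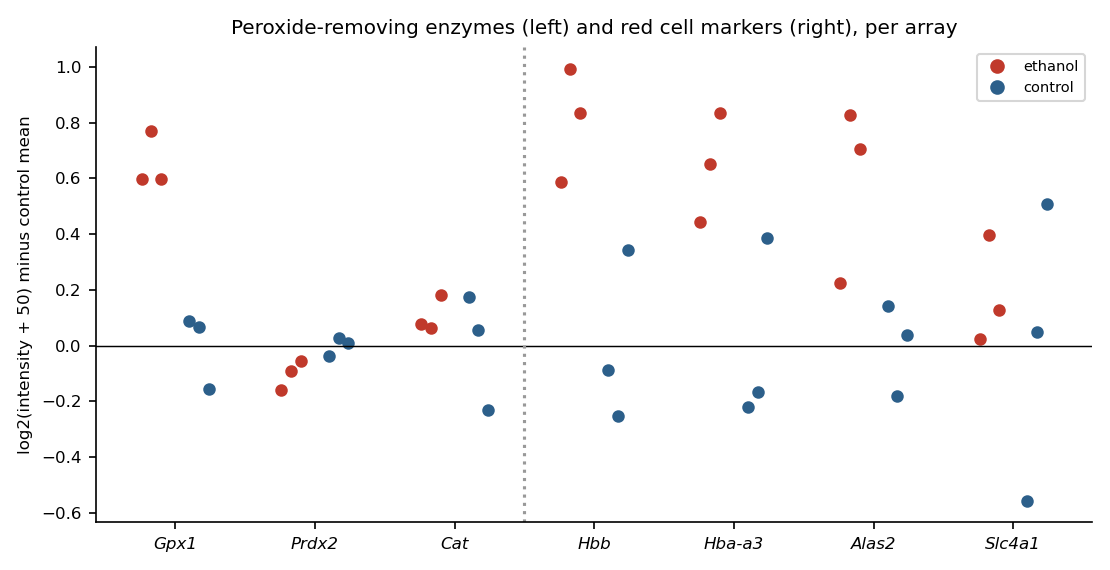
Each array's log2(intensity + 50) minus the control mean for 3 peroxide-removing enzymes (left of the dotted line) and 4 red cell markers (right of it), with ethanol rats in red and control rats in blue. Ethanol arrays lie above control arrays for Gpx1, Hbb, Hba-a3 and Alas2, but not for Prdx2, Cat or the brighter probe set of Slc4a1, the one shown.

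Of the adipocyte markers, Lpl (log2 change 0.77, SE 0.28) and Cfd (0.69, SE 0.21) were higher at an unadjusted p under 0.05 and Fabp4 was not (-0.13, SE 0.24). The summed level of 5 measured ones ran from 8211 to 9335 in ethanol rats and from 4602 to 7038 in control rats. Its largest part was Lpl, whose groups overlapped. Lpl read 4116, 5981 and 7065 in ethanol rats and 3533, 2255 and 4353 in control rats. Plin1 and Lep, below the filter, had untested changes of -0.04 and 0.34. The duct sum ran from 8635 to 9065 in ethanol rats and from 9865 to 10731 in control rats. Most of it was Muc1 (log2 change -0.27, SE 0.13). Spp1 was at -0.24 and Krt7 at -0.15, while Krt19, below the filter, had an untested change of 0.49. None of the 3 tested duct markers had an unadjusted p under 0.05. Sums overlapped between the diets for islet, leukocyte, fibroblast, hepatocyte and acinar markers, and the liver gene Apoa1 was below 0 on every array. The part of these cells in the members' values was not tested. RNA integrity, read as the ratio of 3′ to 5′ signal of beta-actin, was 1.67 ± 0.122 in ethanol rats and 1.80 ± 0.313 in control rats (SD, n = 3 each). The exact permutation test, two-sided, gave p = 0.6 for it and the same for the GAPDH ratio. With 3 rats against 3, such a test cannot give a p below 0.1.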

How the data were processed

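Pancreas RNA of 3 rats on an ethanol diet and 3 on a control diet was hybridised as biotinylated cRNA, per the labels' protocols, and each rat is 1 array. The deposited values are intensities on a linear scale, and the sources used here do not name the scanner, the software or the normalization. From the values, some signal had been subtracted before deposit (931 to 949 values below 0 per array), by a step that is not named. The arrays had been brought to medians of 543 or 544. A difference between diets in total RNA can therefore not be seen. They were not normalized again.

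Control probe sets (57) were left out, which left 15866. Genes were named from the platform annotation where it gives a single symbol (12783 probe sets). All 42 measured members were found by gene ID in RefSeq GRCr8 under the same symbol. Values below 0 were set to 0, 50 was added and the log2 was taken, which understates changes of dim probe sets. The 9520 probe sets whose mean log2 value reached the 40th percentile were tested with limma 3.58.1 in R 4.3.3, ethanol minus control, with 2 groups, no block and empirical Bayes, with Benjamini-Hochberg adjustment over all of them. Intervals are 95%. The number of arrays limits the precision (median SE 0.18). The procedure was tested on simulated data.

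Values on every array are given for members with an adjusted or unadjusted p under 0.05 or with diets that did not overlap, and for some further members of each class. Pathway genes outside the members are named where their unadjusted p was under 0.05, with others given for context after their values were seen. The members and lists were chosen with earlier results of these data known. Alternative settings changed the constant (20 or 100), the filter (none, or the 60th percentile), the variance model (trend), the normalization (quantile), the block (replicate number) or the choice of probe set (mean of all), or left out each array.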

Additional observations from a re-analysis of the deposited data

How the results depend on the processing

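No member reached an adjusted p under 0.05 except Gpx1 with the trend in variance and under the stricter filter, the 60th percentile (1 member called in each). The 12 members with values on every array that the rule names kept the sign of their log2 change under all alternatives in which they were tested. Gpx1, Txnrd2, Hmox2, Prdx6 and Gstm1 kept an unadjusted limma p under 0.05 in all 14. Among the pathway genes, Txnl1 changed sign to 0.13 when its probe sets, with a near-background one among them, were averaged. The count of members at an unadjusted p under 0.05 was 8 as reported and ran from 5 to 9 with an array left out, with 2 to 4 higher and 3 to 5 lower. The lowest count, 5, came without control replicate 1, and 3 lower without control replicate 1 or ethanol replicate 3. The count of probe sets called, 39 (10 higher, 29 lower), depended on the settings: 12 with a constant of 20 (2 and 10), 18 higher with a constant of 100, 249 with the variance trend (88 and 161), 134 with the stricter filter (48 and 86), and 0 with no filter, where 0 were higher and 0 lower and limma gave 2263 at an unadjusted p under 0.05. With an array left out it ran from 2 to 38, with 0 to 17 higher and 2 to 21 lower. With the replicate block it was 6 (4 and 2), and the members at an unadjusted p under 0.05 were again 8. Same-numbered arrays did not deviate together (correlations of -0.03, 0.03 and -0.14). With 3 arrays per diet this check cannot tell whether the rats were paired by design. The cause of these shifts was not tested. Of 112 class medians under the alternatives, 5 moved by more than the spread between arrays.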

Other observations

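Several of these enzymes are selenoproteins, which carry selenocysteine at the active site, and log2 changes of both signs were seen among their transcripts. The grouping was made after the values were seen and has no test. Of 11 selenoprotein genes among the members and the other pathway genes, 9 were tested; 3 were higher at an unadjusted limma p under 0.05 (Gpx1, Txnrd2 and Selenok), 1 was lower (Msrb1) and 5 were not under that threshold. Over all tested probe sets 8.08% were higher and 10.3% lower at that threshold, and nothing is read from the difference, since the group was formed on these values. Selenop, the selenium carrier of plasma, was at 34041, 40494 and 46765 in ethanol rats and 35801, 36092 and 36543 in control rats, a log2 change of 0.15. Sephs2, which makes the selenium donor for selenocysteine, had the lowest log2 change of the 9 (-0.77, SE 0.35, limma adjusted p = 0.283). It read 595, 1067 and 1185 in ethanol rats and 2277, 1856 and 954 in control rats. Its groups overlapped through control replicate 3.

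Some reactions have an enzyme in each of several compartments. In the cytosol Sod1 was at -0.48 and in mitochondria Sod2 was at 0.01, while for thioredoxin reductase the mitochondrial Txnrd2 was at 1.12 and the cytosolic Txnrd1 at -0.19. For thioredoxin itself the order was the other way, with the mitochondrial Txn2 at -0.10 and the cytosolic Txn1 at 0.17. These differences between isoenzymes were not tested.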
